A study of Mus musculus with 4 samples.

Results

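The 10 genes described here mark the mural cells of blood vessels, that is pericytes and vascular smooth muscle cells, together with the ligand that recruits them. They were chosen by name: 5 pericyte genes (Pdgfrb, Rgs5, Abcc9, Cspg4 and Anpep), 4 smooth muscle genes (Acta2, Tagln, Myl9 and Des) and the endothelial ligand gene Pdgfb. All 10 were found among the 19968 genes listed in both deposited tables. RNA sequencing libraries came from C57BL/6 mouse embryos at embryonic day 15, from dissected cerebral cortex per the extraction protocol. The samples carried either a conditional knockout of Prdm16 (Prdm16cKO) or floxed Prdm16 alleles (Prdm16fl/fl), and the Cre line, the deleted exon and the number of embryos behind a library were not given in the sources used here. A title in each group also holds the word Blood, unexplained. The tables hold 2 libraries labelled cKO, named cKO 1 and cKO 2 here, and 1 control library, named floxed.

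Pericytes are embedded in the wall of capillaries, beneath the basement membrane that they share with the endothelium. Endothelial cells secrete PDGF-B, and mural progenitors that carry its receptor PDGFR-beta follow it along the growing vessel, so that cortical capillaries become covered while they sprout. Smooth muscle cells wrap larger vessels, in the embryonic brain mainly those of the surface, and carry a contractile apparatus of smooth muscle actin, its binding proteins and regulated myosin. In smooth muscle, serum response factor (SRF) and its myocardin-family partners are known to act through CArG boxes in the promoters of contractile genes.

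Promoter sequences are shown for the member furthest below floxed in each group, Acta2 and Anpep, and for a member of each group that was closer to it, Myl9 and Rgs5. They are those of RefSeq (GRCm38.p6), which gave the 250 bases upstream of an annotated start for 7 of the 10 members. Capitals mark CArG boxes, searched as 10 bases that begin with CC and end with GG around a core of 6 bases with at most 1 G or C, a rule that reads the same on either strand. In Rgs5, capitals mark the letters TATATA, which also read the same on either strand. For Acta2, whose window lies mostly within the first exon of a longer GENCODE transcript (Acta2-201), 30 bases around each match are given, and for Myl9 the window stops before the first exon.
Acta2, chr19:34255438-34255467, minus strand: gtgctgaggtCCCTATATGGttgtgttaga
Acta2, chr19:34255388-34255417, minus strand: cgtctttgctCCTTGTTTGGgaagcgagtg
Myl9, chr2:156775214-156775419, plus strand: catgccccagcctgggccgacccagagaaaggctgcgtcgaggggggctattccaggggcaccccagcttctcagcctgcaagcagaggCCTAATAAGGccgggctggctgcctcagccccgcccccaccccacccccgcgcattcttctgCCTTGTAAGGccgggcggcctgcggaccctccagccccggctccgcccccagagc
Anpep, chr7:79848211-79848460, minus strand: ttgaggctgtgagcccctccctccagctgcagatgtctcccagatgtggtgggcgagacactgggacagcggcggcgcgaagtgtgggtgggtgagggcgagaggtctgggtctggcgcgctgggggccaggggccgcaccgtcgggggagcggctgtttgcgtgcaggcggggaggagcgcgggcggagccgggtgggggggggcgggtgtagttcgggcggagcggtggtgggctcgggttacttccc
Rgs5, chr1:169655251-169655500, plus strand: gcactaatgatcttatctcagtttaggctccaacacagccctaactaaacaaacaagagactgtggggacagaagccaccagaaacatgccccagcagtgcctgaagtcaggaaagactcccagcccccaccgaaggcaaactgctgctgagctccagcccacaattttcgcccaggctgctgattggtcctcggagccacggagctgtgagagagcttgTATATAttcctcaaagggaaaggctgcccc

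Acta2 and Myl9 each held 2 CArG boxes in this window, and the windows of Des, Rgs5, Abcc9, Cspg4 and Anpep held no match to these letters. Over all 32851 promoter windows of the same length, 8.59% held at least 1. TATATA stood 25 to 30 bases before the start of Rgs5 and in no window of the other 6 members, against 5.25% of all windows. A match is a description of letters, not of a bound site.

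The libraries held 19514882 (cKO 1), 18579178 (cKO 2) and 17839662 (floxed) counts over the listed genes, and a level is given as counts scaled to that total (counts per 1000000, CPM). With 1 control library, an SD can be given for the cKO group only (n = 2). Prdm16 itself had 34.6 CPM in cKO 1, 24.1 in cKO 2 and 30.2 in floxed. It was thus above floxed in a library labelled cKO. Deleting a stretch of a gene can leave its summed count in place, and directions below refer to labels. The libraries labelled cKO stood apart in markers of other cells. Summed over 10 meningeal fibroblast markers the level was 1294 CPM in cKO 1, 85.6 in cKO 2 and 825 in floxed, and over 5 border macrophage markers 68.5, 1.40 and 42.7 CPM. Summed neuronal markers (6 genes) had 6104, 6274 and 6122 CPM. How far the amount of meninges in each dissection bears on the values below was not tested.

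The libraries labelled cKO lay on either side of floxed for nearly all members. In cKO 2 all 10 members were lower than floxed, with a median log2 ratio of -1.07 against -0.04 over all genes tested. In cKO 1, 9 of the 10 were higher, with a median of 0.19 against 0.01, and Tagln was lower on a handful of counts. These ratios share the floxed library. A ratio is called beyond counting error when its 95% exact interval, from the conditional binomial distribution, leaves out 1. It compares 1 library with 1 library, not the conditions. By this rule 10 of 10 members were lower in cKO 2, where 24.6% of all genes tested, 21.1% of all genes in both tables and 24.8% of the 9668 genes between 2.35 and 72.1 CPM in floxed were, that being the span of the members with at least 10 counts there. That narrower background was chosen after the values were seen. Tagln lies neither in it nor among the genes tested. The members above floxed by this rule in cKO 1 were 4 of 10 (Pdgfrb, Rgs5, Anpep and Acta2), against 17.9% of all genes tested and 19.8% in the narrower background. No member was below it by the rule, against 16.1% and 12.4%.

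**Figure D1:**
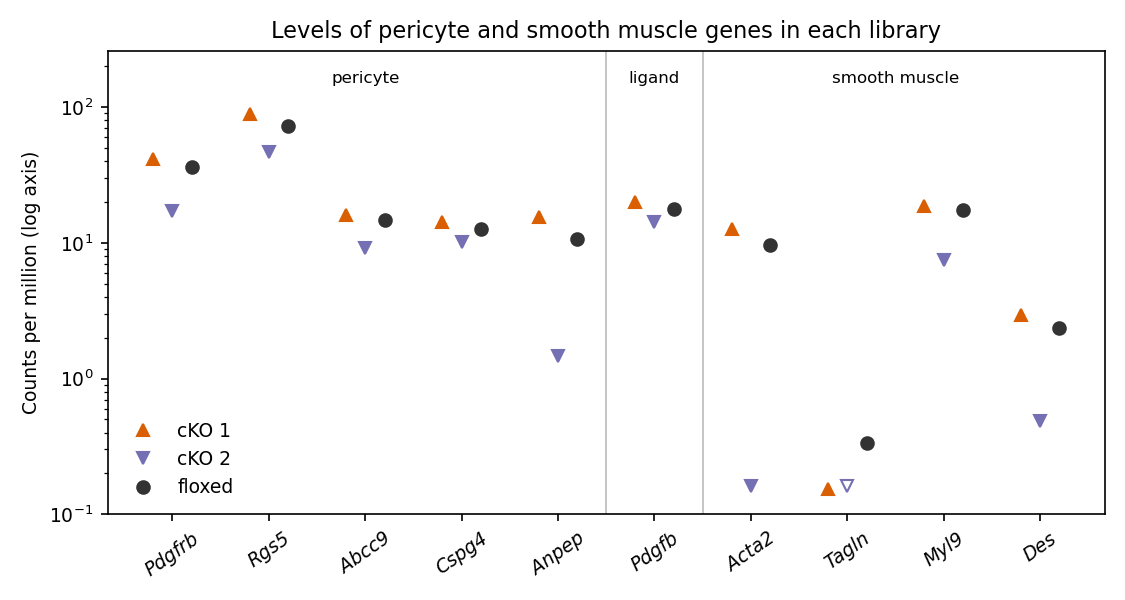
Level of each member in CPM (log axis) in cKO 1 (upward triangles), cKO 2 (downward triangles) and floxed (circles); the open triangle marks Tagln in cKO 2, with 0 counts, at the limit of 3 counts. Acta2 has 12.7 and 9.70 CPM in cKO 1 and floxed and 0.161 CPM in cKO 2, while Pdgfb spans 14.3 to 20.1 CPM.

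As a comparison of the conditions, no member passed the test. edgeR's quasi-likelihood test of 2 cKO libraries against 1 floxed library passed 1 of 16658 genes (Ptx3), that is 0.00600%, with a threshold of 0.05 on the p adjusted by Benjamini and Hochberg. Of the 9 members tested 0 were called and 0 had an unadjusted p under 0.05, which 255 of the 16658 genes had; Tagln did not pass the filter on low counts. DESeq2, limma-voom and edgeR with TMM scaling or without the filter also called 0 members. Fitted log2 folds ran from -0.59 for Acta2 (SE 1.38, edgeR adjusted p = 0.9999) to -0.04 for Pdgfb (SE 0.28, adjusted p = 0.9999). All 9 lay below 0, while the log2 ratio of cKO 1 alone to floxed was above 0 for all 9. For each of these 9 members floxed lay between the libraries labelled cKO. Their SD was therefore bound to exceed the distance of their mean from floxed. Nothing says that libraries of a group came from separate embryos, and the spread behind each p-value is that of these libraries only, which may be technical.

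Pdgfrb encodes the receptor tyrosine kinase through which mural cells respond to PDGF-B, and it is the defining gene of the pericyte group. Its locus is on chromosome 18 (GRCm38, 61045150 to 61085061, plus strand; ENSMUSG00000024620). Pdgfrb levels were 41.5 CPM in cKO 1 (810 counts), 17.2 CPM in cKO 2 (319) and 36.3 CPM in floxed (647). With a cKO mean of 29.3 ± 17.2 CPM (SD, n = 2), floxed lay between the libraries labelled cKO. Against floxed the ratio was 1.14 in cKO 1 (95% exact interval 1.03 to 1.27) and 0.473 in cKO 2 (0.413 to 0.542), and between the libraries labelled cKO, Pdgfrb was 2.42-fold lower in cKO 2. In the authors' deposited tables its log2 folds were 0.19 (adjusted p = 0.0368, not marked significant) and -1.08 (adjusted p = 9.08e-28, marked significant).

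Rgs5 encodes a regulator of G-protein signalling that shortens the signal of activated receptors and is among the most abundant transcripts of brain pericytes. The gene (chromosome 1, 169655501 to 169695813, plus strand) had 88.2 CPM in cKO 1, 46.6 in cKO 2 and 72.1 in floxed, on 1721, 865 and 1287 counts. It was the best counted member. Its ratio to floxed was 1.22 in cKO 1 (1.14 to 1.32) and 0.645 in cKO 2 (0.591 to 0.704). The cKO mean of 67.4 ± 29.4 CPM (SD, n = 2) and the floxed level differed by less than that spread.

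Abcc9 encodes SUR2, the regulatory subunit of an ATP-sensitive potassium channel of mural cells, whose pore is encoded by Kcnj8. Abcc9 (chromosome 6, 142587862 to 142702315, minus strand) had 15.9, 9.10 and 14.8 CPM in cKO 1, cKO 2 and floxed. It lay within counting error of floxed in cKO 1 (ratio 1.08, interval 0.911 to 1.27) and was lower in cKO 2 (0.615, interval 0.504 to 0.748). Kcnj8, with 14.96, 8.50 and 12.1 CPM, kept pace with it: there were 107 Abcc9 counts per 100 of Kcnj8 in cKO 1 (95% exact interval 90.5 to 125), 107 in cKO 2 (85.6 to 134) and 122 in floxed (102 to 147), 3 overlapping intervals. The pancreatic and neuronal counterparts of these subunits did not share this order: Abcc8 had 97.2, 116 and 81.1 CPM and Kcnj11 had 69.6, 72.0 and 61.5 CPM, each above floxed in either library.

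Cspg4 encodes the proteoglycan NG2, which is carried by pericytes and also by oligodendrocyte precursors. With 14.2 CPM in cKO 1, 10.1 in cKO 2 and 12.6 in floxed (chromosome 9, 56865033 to 56899870, plus strand), it had the smallest difference in cKO 2 of the pericyte group. The ratio there was 0.806 (0.660 to 0.983), and with TMM scaling its interval included 1. Relative to Pdgfrb it was higher in cKO 2, with 58.9 Cspg4 counts per 100 of Pdgfrb (49.0 to 70.8) against 34.3 (29.8 to 39.4) in cKO 1 and 34.6 (29.6 to 40.4) in floxed. Among markers of oligodendrocyte precursors, those other than Pdgfra and Cspg4 itself were not lower in cKO 2 beyond counting error: Olig1 had 17.6, 21.8 and 20.2 CPM in cKO 1, cKO 2 and floxed, Olig2 13.9, 13.8 and 13.2 CPM, and Sox10 3.79, 6.30 and 4.04 CPM. The part of these cells in the Cspg4 level was not tested.

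Anpep, which encodes the membrane aminopeptidase CD13, set itself apart from the other pericyte genes. Its levels were 15.6 CPM in cKO 1 (304 counts), 1.45 CPM in cKO 2 (27) and 10.7 CPM in floxed (190), from chromosome 7 (79821803 to 79861059, minus strand). Its ratio was 1.46 in cKO 1 (1.22 to 1.76), the highest of the 10 members, and 0.136 in cKO 2 (0.0876 to 0.205), which is 7.33-fold lower. Per 100 counts of Pdgfrb there were 37.5 of Anpep in cKO 1, 8.46 in cKO 2 (5.49 to 12.6) and 29.4 in floxed (24.8 to 34.6). Set against the 10 meningeal fibroblast markers the share varied less, with 1.20 Anpep counts per 100 in cKO 1 (1.07 to 1.35), 1.70 in cKO 2 (1.11 to 2.48) and 1.29 in floxed (1.11 to 1.49), 3 intervals that overlap. That share depends on Igf2, which alone held 11095 of the 25253 marker counts in cKO 1, 1182 of 1591 in cKO 2 and 6722 of 14721 in floxed. In cKO 2 Igf2 was the least lowered of these markers, with a log2 ratio of -2.57 against a median of -4.07. The share without Igf2 was not computed, so the overlap describes the sum with Igf2 only. All markers other than Igf2 and Ptgds (log2 ratio -2.59) lay further below floxed in cKO 2 than Anpep (-2.87). CD13 is known from perivascular and meningeal fibroblasts as well as from pericytes.

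Pdgfb encodes the ligand, made by endothelial cells and held near them in the vessel wall. It lies on chromosome 15 (79995900 to 80014808, minus strand) and had 20.1 CPM in cKO 1, 14.3 in cKO 2 and 17.7 in floxed, on 392, 266 and 316 counts. The ratio to floxed was 1.13 in cKO 1 (0.975 to 1.32), within counting error, and 0.808 in cKO 2 (0.684 to 0.954). Counts of the ligand and receptor genes therefore differed in proportion between libraries, and which cells gave either count was not tested. There were 48.4 Pdgfb counts per 100 of Pdgfrb in cKO 1 (42.8 to 54.7), 48.8 in floxed (42.6 to 56.0) and 83.4 in cKO 2 (70.6 to 98.4). Per 100 counts of 10 endothelial markers Pdgfb gave 5.13 in cKO 1 (4.62 to 5.68), 5.34 in floxed (4.75 to 5.98) and 7.53 in cKO 2 (6.62 to 8.53), and the interval of cKO 2 overlapped neither of the others.

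Acta2, the gene of smooth muscle alpha-actin, differed most between the libraries. The gene (ENSMUSG00000035783, chromosome 19, 34241090 to 34255336, minus strand) was read 248 times in cKO 1, 3 times in cKO 2 and 173 times in floxed, that is 12.7, 0.161 and 9.70 CPM. The level in cKO 2 thus rests on 3 counts, and its ratio to floxed was 0.0167 (95% exact interval 0.0034 to 0.0495). In cKO 1 the ratio was 1.31 (1.07 to 1.60). The cKO mean of 6.43 ± 8.87 CPM (SD, n = 2) has an SD above the mean itself, because 1 library holds almost all of it. In the authors' deposited tables Acta2 had log2 folds of 0.39 (adjusted p = 0.0241, not marked significant) and -5.91 (adjusted p = 1.72e-41, marked significant).

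Myl9, which encodes the regulatory light chain of smooth muscle myosin, did not go with Acta2. It had 18.6 CPM in cKO 1, 7.43 in cKO 2 and 17.3 in floxed (chromosome 2, 156775420 to 156781658, plus strand), on 363, 138 and 309 counts. The ratio was 1.07 in cKO 1 (0.920 to 1.25) and 0.429 in cKO 2 (0.348 to 0.526), close to that of Pdgfrb. Counts of Myl9 per 100 of Pdgfrb were 44.8 in cKO 1 (39.5 to 50.8), 43.3 in cKO 2 (35.2 to 53.0) and 47.8 in floxed (41.6 to 54.8), with overlapping intervals. Counts of Acta2 per 100 of Myl9 were 68.3 in cKO 1, 56.0 in floxed and 2.17 in cKO 2 (0.443 to 6.49). The promoters printed above hold 2 CArG boxes in each of these genes.

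Des encodes desmin, the muscle intermediate filament, which brain pericytes also contain. It had 57, 9 and 42 counts in cKO 1, cKO 2 and floxed (chromosome 1, 75360329 to 75368579, plus strand), or 2.92, 0.484 and 2.35 CPM. Its ratio was 1.24 in cKO 1 (0.818 to 1.89) and 0.206 in cKO 2 (0.0881 to 0.429), an interval that overlaps that of Myl9. Of its exon bases, 5.86% lie in the opposite-strand gene Gm15179, which was not among the genes listed in both tables.

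Tagln, the gene of the actin-binding protein transgelin (SM22), was close to absent from the counts of every library, with 3 in cKO 1, 0 in cKO 2 and 6 in floxed (chromosome 9, 45929619 to 45936058, minus strand). The limit of 3 counts used here for a count of 0 stands at 0.161 CPM in cKO 2. There the exact interval of the ratio of Tagln to floxed ran from 0 to 0.816. Set at 3 counts, Tagln would be 2.08-fold below the 6 counts of floxed, a figure that leaves out the counting error of floxed. Its ratio in cKO 1 was 0.457 (0.074 to 2.14). The value is uncertain for a further reason. In GENCODE M21, 67.9% of its exon bases lie in exons of other genes, 62.4% in Gm48529 and 5.43% in Pcsk7, all on the opposite strand, and the library kit does not mark strand. Pcsk7 had 39.5, 43.0 and 47.6 CPM in cKO 1, cKO 2 and floxed. Gm48529 was not among the genes listed in both tables, and whether the authors' annotation held it is not known. How the authors' counting treated reads in shared exons was not given in the sources used here.

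**Figure D2:**
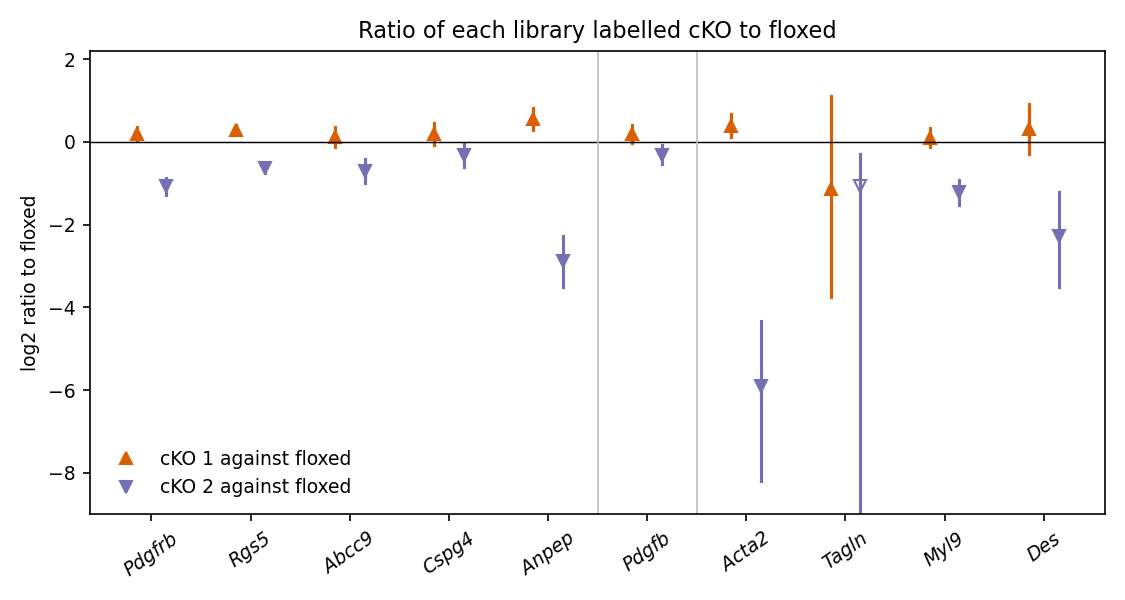
log2 ratio of cKO 1 (upward triangles) and cKO 2 (downward triangles) to floxed for each member, with 95% exact intervals for counting error; vertical lines part pericyte genes, Pdgfb and smooth muscle genes. The open triangle is Tagln with its count of 0 set at 3 and its interval runs below the axis; Acta2 (-5.91) and Anpep (-2.87) lie furthest below 0 in cKO 2.

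Contrasted as groups, the 5 pericyte and 4 smooth muscle genes parted in cKO 2, and longer lists did so less or not at all. The summed level of the 5 pericyte genes was 175 CPM in cKO 1, 84.4 in cKO 2 and 146 in floxed, a ratio of 0.576 (0.541 to 0.614) in cKO 2. The 4 smooth muscle genes summed to 34.4, 8.07 and 29.7 CPM, a ratio of 0.272 (0.225 to 0.326), so smooth muscle counts per 100 pericyte counts were 19.6 in cKO 1 (18.0 to 21.3), 20.3 in floxed (18.4 to 22.3) and 9.57 in cKO 2 (8.04 to 11.3). Median log2 ratios in cKO 2 were -0.70 for the pericyte and -1.75 for the smooth muscle genes, a difference of 1.05 with Tagln set at 3 counts and 1.58 without it. With Des moved to the pericyte genes the difference was 0.33, and with the further lists described below pooled in it was 0.45. Over the further lists alone the log2 ratios of summed levels in cKO 2 were -0.47 for pericyte and -0.43 for smooth muscle genes. In cKO 2, 2 of 5 pericyte genes (Pdgfrb and Anpep) and 3 of 4 smooth muscle genes (Acta2, Myl9 and Des) were lower by over 2-fold, against 7.82% of all genes tested, 11.6% of all genes in both tables and 5.05% in the narrower background. Tagln passes 2-fold only with its count of 0 set at 3, and its interval reaches 0.816. In cKO 1 the groups did not part: their medians were 0.19 and 0.21.

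The contrast did not follow the 2 groups gene by gene. In cKO 2, Myl9 lay near Pdgfrb, and Anpep lay below Myl9. The order of the members by level per kilobase of GENCODE M21 exon shows the same regrouping. In floxed the order was Rgs5 (15.9 CPM per kb), Myl9 (14.9), Pdgfrb (6.62), Acta2 (4.42), Pdgfb (4.26), Anpep (2.58), Abcc9 (1.77), Cspg4 (1.05), Des (0.627) and Tagln (0.169). Counting intervals of neighbours overlapped for Rgs5 with Myl9 and for Acta2 with Pdgfb. In cKO 1 the order was the same, with Rgs5 at 19.4 and Acta2 at 5.79 CPM per kb. In cKO 2 Rgs5 (10.2) and Myl9 (6.39) still led, followed by Pdgfb (3.44) and Pdgfrb (3.13), whose intervals overlapped. There Anpep (0.351) came seventh and Acta2 (0.0735) ninth, and from Anpep down to Tagln the intervals of neighbours overlapped. Those of Anpep (0.232 to 0.511) and Acta2 (0.0152 to 0.215), which were not neighbours, did not.

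The pericyte genes as a sum did not differ from the endothelium beyond counting error. Per 100 counts of the 10 endothelial markers the 5 pericyte genes gave 44.8 in cKO 1 (43.0 to 46.7), 44.4 in cKO 2 (41.8 to 47.1) and 44.1 in floxed (42.1 to 46.2), 3 overlapping intervals, while the summed level of those markers went from 391 CPM in cKO 1 to 190 in cKO 2 and 332 in floxed. Within the sum, Rgs5 per 100 endothelial counts was 22.5 in cKO 1, 24.5 in cKO 2 (22.7 to 26.4) and 21.7 in floxed, and Pdgfrb 10.6, 9.03 (8.02 to 10.1) and 10.9. Rgs5 held 865 of the 1568 pericyte counts in cKO 2, and single members did not all follow the sum. There the log2 ratio to floxed was -0.80 for the summed endothelial markers, -2.87 for Anpep and -0.31 for Cspg4. Acta2 per 100 endothelial counts was 3.25 in cKO 1, 0.0849 in cKO 2 (0.0175 to 0.248) and 2.92 in floxed. Against the summed meningeal fibroblast markers, Igf2 among them, the share of Acta2 was lower too in cKO 2, with 0.189 per 100 (0.0388 to 0.552). This share was 0.982 in cKO 1 and 1.18 in floxed. In cKO 2 it rests on 3 Acta2 counts and on a sum of 1591 counts, 1182 of them from Igf2. Igf2 was the least lowered of these markers, and the share without it was not computed. The lower share of Acta2 thus describes the sum with Igf2 only. Of the single markers, Lum (log2 ratio -6.46 in cKO 2) and Slc6a13 (-8.87) lay further below floxed than Acta2 (-5.91), and the others less far. In tissue as dissected, fewer cells of a type and less RNA per cell cannot be told apart.

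**Figure D3:**
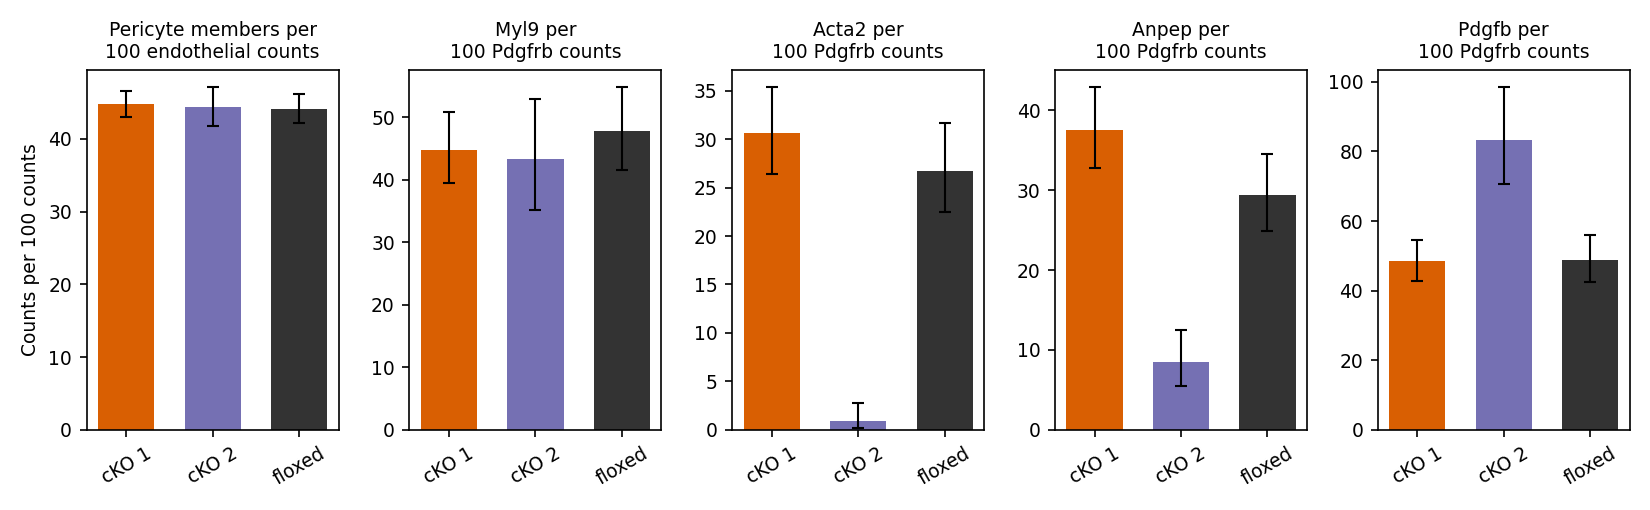
Ratios of counts within each library, as counts per 100 counts of the gene or list named above each panel, with 95% exact intervals as bars; each vertical axis starts at 0 and has its own scale. Summed pericyte members per endothelial counts (44.1 to 44.8) and Myl9 per Pdgfrb (43.3 to 47.8) are level across libraries. Acta2 and Anpep per Pdgfrb are lower in cKO 2, and Pdgfb per Pdgfrb is higher there.

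Further genes of each kind, taken as whole lists, are described by their counts, to be read against all genes tested, of which 24.6% were lower and 16.1% higher in cKO 2, and 17.9% higher and 16.1% lower in cKO 1. Of 18 further pericyte genes 13 lay below floxed in cKO 2 by more than counting error and 1 above, with a median log2 ratio of -0.60, and in cKO 1 there were 9 higher and 0 lower, with a median of 0.29. The most counted in floxed were Zic1, a zinc-finger factor, with 109.7, 81.5 and 64.9 CPM in cKO 1, cKO 2 and floxed, the adhesion glycoprotein gene Vtn, with 81.8, 18.1 and 60.8 CPM, and the receptor gene Notch3, with 62.0, 48.9 and 55.8 CPM. Of these 3, Zic1 lay above floxed in cKO 2. Of 18 further smooth muscle genes 12 lay below it there by the same measure and 1 above (median -0.85), and in cKO 1 there were 5 higher and 1 lower (median 0.15). There the most counted were Tpm1, a tropomyosin, with 113, 82.2 and 115 CPM, the actin-binding caldesmon gene Cald1, with 74.0, 46.1 and 52.4 CPM, and the LIM protein gene Csrp1, with 46.8, 28.0 and 44.0 CPM. The edgeR test passed 0 of the 18 further pericyte genes and 0 of the 17 further smooth muscle genes that entered it. At an unadjusted p under 0.05 there were 1 and 0.

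Both lists were wide. Log2 ratios in cKO 2 ran from -4.31 (Actg2, the enteric smooth muscle actin gene, with 33, 1 and 19 counts in cKO 1, cKO 2 and floxed) to 0.87 (Ppp1r14a, which encodes an inhibitor of myosin phosphatase, with 171, 198 and 104 counts) over the further smooth muscle genes. Myh11, the smooth muscle myosin heavy chain gene, lay at -2.50 on 52, 7 and 38 counts, and Smtn, the smoothelin gene, at 0.08 on 467, 407 and 370 counts. Over the further pericyte genes they ran from -3.79 (Tbx18, a transcription factor gene) to 0.33 (Zic1), with Mcam, the adhesion molecule CD146, at -0.11. Apart from Zic1 these genes, with Kcnj8, Sox10 and Cd163, were named after their values were seen.

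Isoforms of the same protein families that are not specific to smooth muscle are set beside the members. The cytoplasmic actins Actb and Actg1 had log2 ratios of -0.07 and -0.01 in cKO 2 and 0.04 and 0.02 in cKO 1, where Acta2 had -5.91 and 0.39. The non-muscle light chains Myl12b and Myl12a had ratios of 0.17 and -0.25 on the log2 scale in cKO 2, where Myl9 had -1.22. Tagln3, the neuronal transgelin, had 312, 376 and 335 CPM in cKO 1, cKO 2 and floxed, and Tagln2 had 79.5, 60.5 and 59.0 CPM. Vim, which encodes the intermediate filament of radial glia, had log2 ratios of 0.58 and 0.61 in cKO 1 and cKO 2, above floxed in either library. Among regulators of G-protein signalling of the family of Rgs5, Rgs3 had log2 ratios of -0.11 and -0.31 and Rgs8 of -0.51 and -0.60 in cKO 1 and cKO 2, so that Rgs8, unlike Rgs5, lay below floxed in each.

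Of 9 regulators of contractile genes, 6 lay below floxed in cKO 2 by more than counting error and 0 above (median log2 ratio -0.41), and 4 were higher and 2 lower in cKO 1 (median 0.14). Of all genes tested, 24.6% were lower in cKO 2, and 17.9% higher and 16.1% lower in cKO 1. The most counted lay nearer to floxed. Srf had 61.5, 65.7 and 68.5 CPM in cKO 1, cKO 2 and floxed, its coactivator gene Mkl1 (myocardin-related transcription factor A) 66.8, 68.6 and 75.3 CPM, and Rbpj, the nuclear effector of Notch signalling, 102, 93.9 and 92.8 CPM. Myocd, the smooth muscle coactivator gene, was not among the genes listed in both tables. In the PDGF system Pdgfra, the receptor gene of fibroblasts and oligodendrocyte precursors, had 30.1, 8.93 and 20.96 CPM. Over its 7 genes, with Pdgfb and Pdgfrb among them, 4 were lower in cKO 2 by that rule and 0 higher, and 3 were higher in cKO 1 and 0 lower.

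**Figure D4:**
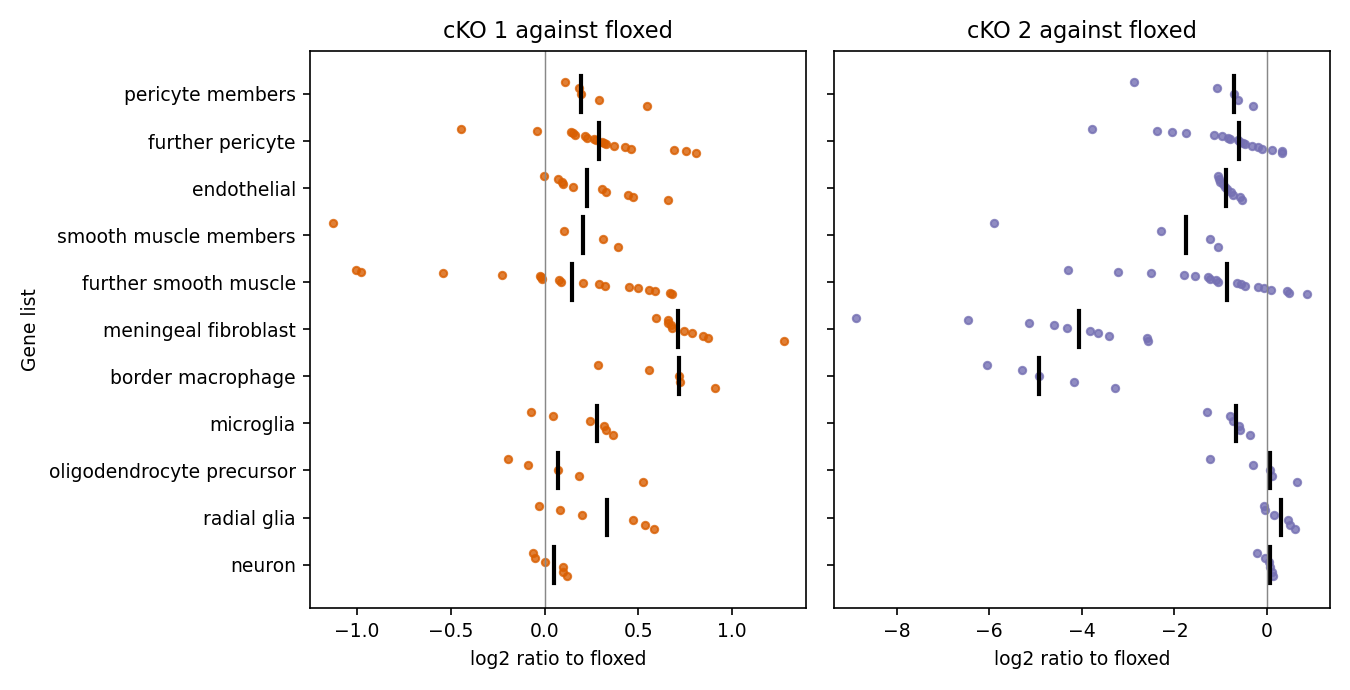
log2 ratio to floxed of each gene (points) of the lists named at left, in cKO 1 (left panel) and cKO 2 (right panel, wider axis), with the list median as a black bar; a count of 0 is set at 3 counts, and some genes belong to more than 1 list. In cKO 2 the pericyte and endothelial medians are -0.70 and -0.88, the smooth muscle median is -1.75, and those of meningeal fibroblasts and border macrophages are -4.07 and -4.92.

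Markers of other vessel-associated cells gave these levels beside the members, where 24.6% of all genes tested were lower in cKO 2 and 17.9% higher in cKO 1. All 10 endothelial markers were lower in cKO 2 beyond counting error, with log2 ratios between -1.06 and -0.55, a narrower span than that of the pericyte genes (-2.87 to -0.31). All 10 meningeal fibroblast markers were lower in cKO 2, between -8.87 and -2.57, and all 10 were higher in cKO 1, between 0.59 and 1.28. Acta2 at -5.91 lay within the range of the meningeal markers and Anpep at -2.87 at its upper end, while the other pericyte genes, Pdgfb, Myl9 and Des lay above it. Microglial markers had a median of -0.66, with 4 of 6 lower beyond counting error, and border macrophage markers one of -4.92. Cd163, a defining border macrophage gene, was at 0 in cKO 2. The 5 choroid plexus markers had a median of -1.75 and the 6 erythroid markers one of -0.45, while the 6 radial glia markers had 0.31. Markers of striated muscle, which also expresses Des, summed to 3.89, 4.68 and 5.21 CPM in cKO 1, cKO 2 and floxed. The part of these cells in the members' differences was not tested.

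The genes nearest to Pdgfrb and Acta2 were found by Euclidean distance between the pairs of log2 ratios, over 3 libraries. The search covered 11915 genes with at least 5 CPM in the highest library and at least 1 count in each library. Genes without a count in cKO 2 could therefore not be named. Among those nearest to Pdgfrb were Lgals3bp, at a distance of 0.04, the leukocyte gene Laptm5 (0.04), Vamp8 (0.04) and the filamin gene Flnc (0.05). For Acta2 the search gave Lrrc17 (0.21), the hyaluronan receptor gene Lyve1 (0.35), the transcription factor gene Osr1 (0.44), the collagen gene Col6a1 (0.51) and the connexin gene Gjb2 (0.52). Lrrc17 had 5.07, 0.0538 and 3.36 CPM in cKO 1, cKO 2 and floxed, and Gjb2 had 14.6, 0.161 and 8.13 CPM. The cKO 2 ratio of Acta2 rests on 3 counts and those of Lrrc17, Lyve1, Osr1 and Gjb2 on 1, 2, 2 and 3, so that single counts can set these distances and their order. Lrrc17 reached 5 CPM in cKO 1 only. With 3 libraries such likeness describes the libraries and no more.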

How the data were processed

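The authors deposited 2 tables of raw counts per gene, each with a library labelled cKO beside the same floxed library, per the file headers. A further sample of the floxed group was not analysed here. Columns were put in groups by KO or WT in their names; which sample gave which column is not known. Bowtie2 2.2.3, TopHat2 2.0.12, HTSeq 0.6.0 and mm9 are named, per the submitters' processing notes, but the printed positions are those of GRCm38: 17866 of 19968 genes stood at the identical position in GENCODE M21, 8 of 10 members among them. Log2 folds and adjusted p-values in the authors' deposited tables compare 1 library with 1, by a test that the sources used here do not name. Any gene found in a single table was left out.

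Counts were scaled to library totals over the listed genes. edgeR 4.0.16 (R 4.3.3) tested genes passing its filter (minimum count 10) with 1 residual degree of freedom, so the spread came from the cKO libraries and floxed was assumed to vary like them. TMM, DESeq2 1.42.0, limma-voom (limma 3.58.1), no filter and a prior count of 2 were alternatives. Exact 95% (Clopper-Pearson) intervals cover counting error only. The reads carry no molecular identifiers, and the intervals make no allowance for duplicate reads. The tested genes were chosen as the background of these intervals after values were seen. A count of 0 was set at 3 counts per library. All members were named; from other lists the 3 genes with most counts in floxed, or fewer, were, unless said otherwise. A gene that the likeness rule names is not reported here. The members and lists were chosen with earlier results of these data known.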

Additional observations from a re-analysis of the deposited data

How the results depend on the processing

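With TMM scaling or DESeq2 size factors all 20 log2 ratios of the members kept their sign and moved by at most 0.04, and with a prior count of 2 by at most 0.99 (Tagln in cKO 2). Genes passing the test were 1 with edgeR and library totals, 0 with TMM scaling, 0 with no filter on low counts, 1 with limma-voom and 5 with DESeq2. Unadjusted p-values under 0.05 numbered 255 with library totals, 217 with TMM, 412 without the filter, 262 with limma-voom and 98 with DESeq2. With a cKO library left out no model was refitted, and what remains is the log2 ratio of the other cKO library to floxed, as given above. Without cKO 2 that ratio was opposite in sign to the fitted log2 fold. The ratios of cKO 2 and cKO 1 were -1.08 and 0.19 for Pdgfrb, -0.63 and 0.29 for Rgs5, -0.70 and 0.11 for Abcc9 and -0.31 and 0.18 for Cspg4. They were -2.87 and 0.55 for Anpep, -0.31 and 0.18 for Pdgfb, -5.91 and 0.39 for Acta2, -1.22 and 0.10 for Myl9 and -2.28 and 0.31 for Des, values with no test. The causes of these changes were not tested. The pericyte minus smooth muscle difference of medians in cKO 2 (1.05) was 1.36 with a prior count of 2, 0.33 with Des among the pericyte genes, 0.45 with the further lists pooled in and 1.58 without Tagln, an alternative chosen after seeing the data. In cKO 1 the difference (-0.01) reversed to 0.14 with Des moved, 0.12 with the further lists and 0.050 from summed counts. With 99% intervals the calls of Cspg4, Pdgfb and Tagln in cKO 2 and of Pdgfrb in cKO 1 were lost, and with TMM scaling that of Cspg4 in cKO 2. No paired analysis was possible because the tables hold 1 floxed library only. Depth limits Tagln and Des, with at most 6 and 57 counts, and Acta2 in cKO 2.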
